A study of Mus musculus with 5 samples.

Results

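The comparison described here set neural progenitor cells taken from mouse brain (NPC) against mouse embryonic fibroblasts (MEF), with 1 single-colour expression array for each cell type. These are 2 of the 5 arrays of a study of chemically induced neural progenitor cells (ciNPC), cells that were converted from fibroblasts, and both were chosen by their cell type label alone. The labels call both samples primary cells and name the NPC sample as the control for the induced cells. They give no strain, embryonic age, brain region, passage or culture medium for either sample, and no treatment of either. The other 3 arrays held ciNPC, 1 from passage 5 and 2 from passage 13. The 2 arrays of passage 13 serve as a measure of how far arrays with the same label lay apart. All 5 arrays also enter the choice of the probe that represents a gene. The NPC and MEF arrays were hybridised on the same slide and scanned together. There is no replicate of either cell type, so each difference compares these 2 RNA samples, carries no error of its own and has no p-value.

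Fibroblasts of the embryo are connective tissue cells. They secrete and crosslink the collagen-rich matrix, hold it through integrins and pull on it with actin bundles and non-muscle myosin. TGF-beta and the mechanically controlled coactivators YAP and TAZ are known to raise many genes of this matrix and contractile apparatus. Neural progenitors of the brain are dividing cells that keep SoxB1, bHLH and POU transcription factors active, respond to Notch, Wnt and growth factors, and give rise to neurons, astrocytes and oligodendrocytes. Cultured brain progenitors commonly express genes of radial glia, of early astrocytes and of the oligodendrocyte lineage side by side.

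Signal is given as log2 of the spot intensity relative to the 75th percentile of its own array, so that 0 is the level below which 75% of the probes lie. Of 21983 genes with a named probe, 15977 were well above background on at least 1 of the 2 arrays and were counted: 13318 on both, 982 on the NPC array only and 1677 on the MEF array only. A gene was called higher or lower at a difference of at least 4-fold (log2 of 2), after signals under the floor (the lowest signal well above background, -4.18 on the NPC array and -4.12 on the MEF array) were raised to it. Where a gene was not well above background on the dimmer array its measured signal is printed, and the fold is a lower bound against the higher of that signal and the floor, written "at least". A gene well above background on 1 array alone could be called only towards that array. By this measure 1289 genes (8.07% of those counted) were higher in NPC and 1644 (10.3%) were lower, together 18.4%. These shares are the background for the counts of every list below. With normexp background correction of the raw spot signals, which adds an offset of 50, 842 genes were higher and 1201 lower. The median difference over all genes counted was -0.03, with a lower quartile of -0.85 and an upper quartile of 0.83, and 9158 genes (57.3%) lay within 2-fold.

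The arrays that share a label lay far closer together, although the labels do not say whether they came from separate cultures. Between the 2 ciNPC passage 13 arrays, on another slide, 103 of 14828 genes (0.695%) were at least 4-fold apart, and 94.2% lay within 2-fold. That count rests on the floor and on dim genes: it was 996 with no floor, 24 with normexp and 17 over genes well above background on both arrays. The SD of the difference over genes well above background on both arrays of a pair was 0.307 for that pair and 1.64 for NPC and MEF. Large differences were mostly on the side of the fibroblasts: 357 genes were at least 32-fold lower in NPC and 174 at least 32-fold higher, 127 and 43 reached 128-fold, and 17 and 6 reached 1024-fold. No gene of the passage 13 pair reached 32-fold. On the MEF array, 281 probes that were well above background and printed as 5 or more spots had a median SD of 0.049 between their spots, and the 256 such probes of the NPC array had 0.048.

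**Figure D1:**
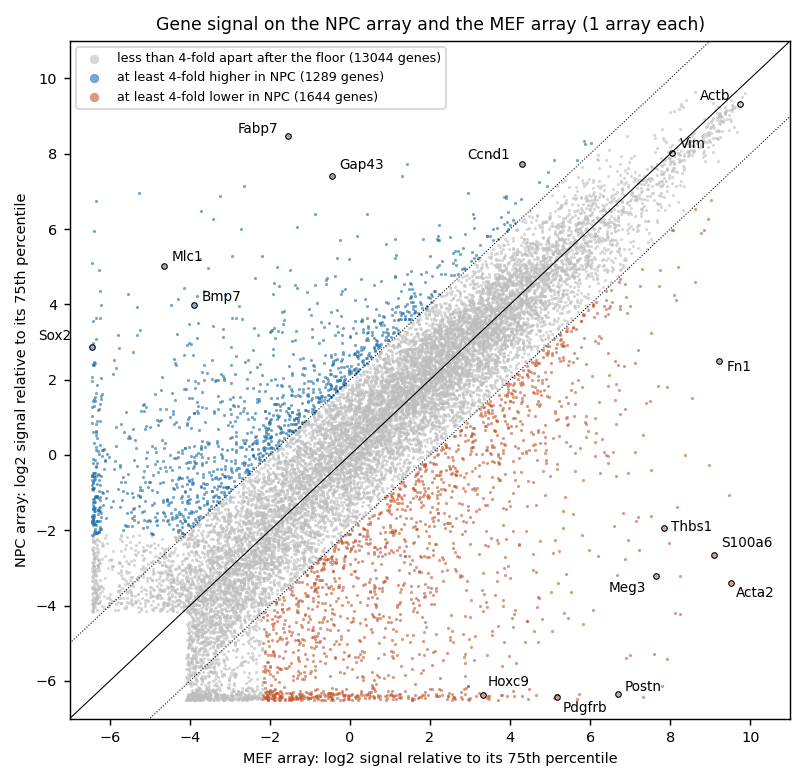
Log2 signal of each counted gene on the NPC array (vertical axis) against the MEF array (horizontal axis), both relative to the array's 75th percentile. Blue points are the 1289 genes called higher and orange points the 1644 called lower; the solid line marks equal signal and the dotted lines 4-fold. Vim and Actb lie near the line, Fabp7 and Gap43 far above it, and Acta2, S100a6 and Postn far below it.

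**Figure D2:**
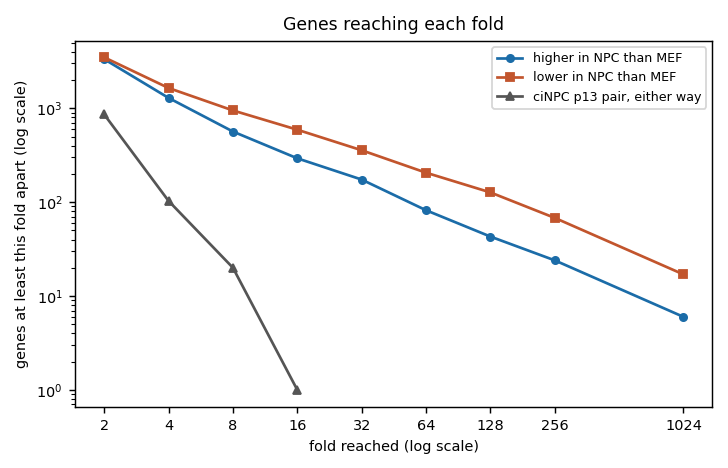
Number of genes (log scale) that reached each fold (log scale), for genes higher in NPC, genes lower in NPC and the ciNPC passage 13 pair in either direction. At every fold drawn more genes were lower than higher in NPC, and the passage 13 pair had 1 gene at 16-fold and none beyond it.

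The transcription factors that define neural progenitors separated the samples, and as defining markers they went with the NPC label. Of 28 such genes on the list, 27 were counted, 18 were higher in NPC (against 8.07% of all genes) and 1 was lower, and the median difference was 3.57. Over the 15 that were well above background on both arrays the median was 1.86. In bulk RNA, fewer cells of a type and less RNA per cell cannot be told apart, here and for every list that follows. The SoxB1 factor Sox2, which holds progenitors in the undifferentiated state, measured 2.87 on the NPC array and -6.43 on the MEF array, at least 127-fold higher in NPC. Its relative Sox1 measured 0.33 on the NPC array and -2.33 on the MEF array, 6.30-fold higher, although the other Sox1 probe gave -0.75.

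Factors used in different regions and lineages of the brain were high in the same sample. Olig2, which marks ventral progenitors and the oligodendrocyte lineage, measured 4.42 in NPC and -4.15 in MEF, at least 372-fold higher. Pax6, the dorsal and radial glial factor, measured -0.97 in NPC and -6.06 in MEF, at least 8.85-fold higher. Otx2, a factor of the forebrain and midbrain, measured 0.87 in NPC and -4.34 in MEF, at least 31.7-fold higher, and Lhx2, which specifies cortex, 2.0 in NPC and -3.35 in MEF, 40.6-fold higher. Insm1, a factor of intermediate progenitors and early neurons, was at least 100.4-fold higher. The Notch target Hes5 was at least 57.01-fold higher, Nr2e1 (Tlx), needed for adult neural stem cells, at least 53.6-fold higher, and the POU factors Pou3f3 and Pou3f2 at least 43.4-fold and at least 18.8-fold higher. The gliogenic factor Sox9 stood at 3.27 in NPC and -0.29 in MEF, 11.8-fold higher.

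Not every neural regulator followed. Neurog2, a proneural factor, was not well above background on either array. Hes1, which many cell types use downstream of Notch, measured -0.26 in NPC and 0.67 in MEF, a difference of -0.94. Nfib and Nr2f1, factors of glial and cortical development, were already bright in fibroblasts, at 4.45 and 3.25, and differed by 0.99 and 1.97. The other Nr2f1 probe gave 3.23, past 4-fold higher in NPC. Id4, an inhibitor of bHLH factors that is often used as a neural stem cell gene, went the other way: it measured -3.7 in NPC and 0.61 in MEF, 19.9-fold lower in NPC, from 1 probe. The hindbrain and dorsal neural factor Zic1 was well above background on both arrays (3.55 in NPC and 1.69 in MEF).

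Genes for the membranes and filaments of radial glia, the progenitors that span the wall of the embryonic brain, were higher in NPC in 14 of 20 members and lower in 0, with a median of 2.58. Fabp7, the brain lipid-binding protein of radial glia, gave 8.46 in NPC and -1.56 in MEF, 1038-fold higher. The membrane proteins Gpm6a and Gpm6b were at least 135-fold and 62.6-fold higher, the glutamate transporter Slc1a3 (Glast) 42.1-fold higher and Prom1 (CD133), used to sort neural stem cells, at least 57.97-fold higher. Nes, the intermediate filament nestin, is the classic progenitor marker, and it was well above background in both samples, with 6.79 in NPC and 4.27 in MEF and a 5.75-fold difference. Ptprz1 (6.69 in NPC and 4.12 in MEF) and Cd24a (4.81 in NPC and 2.36 in MEF) were likewise bright on both arrays and 5.95-fold and 5.44-fold higher in NPC.

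Several names usually listed with progenitors did not tell these samples apart. Vim, the intermediate filament vimentin, stood at 8.01 in NPC and 8.05 in MEF, a difference of -0.04. N-cadherin, Cdh2, gave 4.63 in NPC and 4.44 in MEF. The RNA-binding protein Msi1 (Musashi) measured -0.35 in NPC and -0.55 in MEF, and its relative Msi2 was 5.95-fold higher in NPC. Tenascin C, Tnc, a matrix protein of germinal zones and of wounds, gave 3.7 in NPC and 4.03 in MEF. Nes, Vim, Cdh2 and Msi1 were thus well above background in fibroblasts too.

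Astrocyte genes were higher in 7 of the 15 members counted and lower in 0, with a median of 1.8. Mlc1, a membrane protein of astrocyte endfeet, measured 5.01 in NPC and -4.65 in MEF, at least 559.7-fold higher. Sparcl1 (hevin) was 78.3-fold higher, Aldoc 17.7-fold, Aldh1l1 13.5-fold, Fgfr3 11.3-fold and glutamine synthetase, Glul, 5.49-fold. Other astrocyte genes were not called. Gfap gave -2.3 in NPC and -3.61 in MEF, the water channel Aqp4 -2.87 in NPC and -2.15 in MEF, and S100b -1.43 in NPC and -0.51 in MEF. The gap junction gene Gjb6 was dim on both arrays. Apoe, which fibroblasts also make, measured 2.17 in NPC and 1.85 in MEF.

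Neuron genes were split. Of 26, 21 were counted, 9 were higher and 3 lower, with a median of 1.73. That median was -0.03 when genes dim on both arrays were kept at the floor, so the list has no settled direction. The growth-cone protein Gap43 was 230.0-fold higher at 7.4 in NPC and -0.45 in MEF, the microtubule regulator Stmn3 126-fold higher, synaptotagmin 1 (Syt1) 122-fold higher and Map2 90.2-fold higher. In contrast, Tubb3, the neuronal beta-tubulin used to stain young neurons, measured -1.37 in NPC and 2.94 in MEF, 19.9-fold lower in NPC, Snap25, part of the synaptic fusion machinery, 3.37 in NPC and 5.57 in MEF, 4.59-fold lower, and Stmn2 at least 6.64-fold lower. Dcx, Gad1, Gad2, Slc17a6 and Slc17a7, used as genes of migrating or committed neurons, were not well above background on either array.

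Genes of the oligodendrocyte lineage had no common direction, with 2 of 12 counted members higher, 2 lower and a median of -0.21. Sox8 was at least 30.8-fold higher and Bcas1, expressed by newly formed oligodendrocytes, 7.97-fold higher. Pdgfra, the growth factor receptor of oligodendrocyte precursors and also of fibroblasts, was -1.9 in NPC and 1.0 in MEF and 7.47-fold lower, and Cspg4 (NG2), shared by precursors and mural cells, 2.53 in NPC and 3.91 in MEF. Mbp, a myelin protein, was at least 8.19-fold lower by 1 of its 2 probes, but the other gave -0.32. Sox10 (-1.96 in NPC and -1.55 in MEF) was close, and Gpr17, Enpp6, Myrf and Opalin were dim on both arrays. Beside Olig2, Sox8 and Bcas1 were thus higher in NPC than in MEF, and Pdgfra, Cspg4, Mbp and Sox10 were not.

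Receptors for glutamate and GABA were higher in 6 of 21 counted members and lower in 1. Gabrg1 (1.65 in NPC and -6.35 in MEF) and Gria4 (0.91 in NPC and -6.33 in MEF) were at least 54.3-fold and at least 32.6-fold higher, and Gria2, an AMPA receptor subunit like Gria4, at least 13.8-fold higher. The brain proteoglycans Bcan (brevican) and Ncan (neurocan) also stood high, Ncan at 3.33 in NPC and -5.24 in MEF, at least 174-fold higher. Among other matrix genes of the brain, the growth factor Mdk (midkine) was -1.22 in NPC and 3.97 in MEF, 36.6-fold lower, Ptn (pleiotrophin) 5.62 in NPC and 7.56 in MEF, and Vcan (versican) 1.5 in NPC and 2.24 in MEF, with its 3 probes between -0.74 and 1.42. That list held 2 higher and 3 lower members among 10, and its median was -1.1 by 1 probe per gene but 0.13 by the mean over all probes.

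Collagens lay on the fibroblast side. Of 38 members 32 were counted, 22 were lower in NPC (against 10.3% of all genes) and 1 was higher, and the median was -3.87. The fibril collagen Col3a1 gave -2.33 in NPC and 7.96 in MEF, 1246-fold lower, and the fibril regulator Col5a1 0.52 in NPC and 7.33 in MEF, 112-fold lower. The beaded-filament chains Col6a1 and Col6a2 were 593-fold and at least 252-fold lower. Both common chains of basement-membrane collagen lay on that side, Col4a1 at -1.95 in NPC and 5.31 in MEF and Col4a2 at -2.27 in NPC and 5.11 in MEF, which is 153-fold and 166-fold lower. The rarer chains Col4a5 (-0.46) and Col4a6 (0.09) differed by less than 2-fold. Col16a1, a minor fibril-associated collagen, was 5.74-fold lower and still well above background in NPC, at 3.88 in NPC and 6.4 in MEF. The single collagen called higher was Col9a3, at least 5.99-fold, from a signal of -1.53 on the NPC array.

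The proteins that organise and crosslink those fibres were the list with the lowest median, -5.4: 30 of 37 counted members were lower in NPC and 0 higher. Fibronectin, Fn1, was still well above background in NPC but 105-fold lower, at 2.51 in NPC and 9.22 in MEF. Periostin (Postn) was at least 1868-fold lower, thrombospondins Thbs1 and Thbs2 878-fold and 246-fold lower, and the elastic-fibre protein Fbln5 802-fold lower. The lysyl oxidases, which crosslink collagen and elastin, were lower across the family: Lox at least 397-fold, Loxl1 475-fold, Loxl2 59.00-fold, Loxl3 33.1-fold and Loxl4 at least 25.3-fold. The small proteoglycans Dcn (decorin) and Ogn were 219.8-fold and at least 307-fold lower.

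Exceptions were named members of the same list. Sparc, a collagen-binding glycoprotein, gave 8.57 in NPC and 9.66 in MEF, although its other probe gave a log2 difference of -2.3, past 4-fold. Fbln1 gave 2.72 in NPC and 2.03 in MEF. Fbn2, the fetal fibrillin, measured 4.09 in NPC and 4.74 in MEF, while Fbn1, its adult relative, was 18.9-fold lower at 0.95 in NPC and 5.19 in MEF. Of the collagen prolyl hydroxylases, P4ha2 was 47.1-fold lower and P4ha1 -1.04 on the log2 scale.

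Matrix receptors differed by subunit. Integrin genes were lower in 8 of 19 counted members and higher in 3. Itgb3, the beta chain of the vitronectin receptor, was 134-fold lower (-3.18 in NPC and 3.88 in MEF), Itgb5 17.2-fold lower and Itga5, the fibronectin receptor chain, 7.45-fold lower. Those higher in NPC were Itga6, a laminin receptor chain used to enrich neural stem cells (6.96 in NPC and 2.94 in MEF, 16.3-fold), Itga4 (4.27 in NPC and -0.23 in MEF, 22.6-fold) and Itgb8, which activates latent TGF-beta in brain (at least 7.97-fold). The shared beta chain Itgb1 stood at 3.51 in NPC and 5.42 in MEF. Laminins, the ligands, were lower in 6 of 9 members, with Lama2 66.5-fold lower and Lama5 at 0.71.

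Genes of the contractile apparatus were lower in 20 of 30 members and higher in 1, with a median of -2.88. Smooth-muscle genes had large gaps: Actg2 gave -6.14 in NPC and 7.8 in MEF, at least 4033-fold lower, Tagln (SM22) -1.07 in NPC and 9.46 in MEF, 1481-fold lower, the regulatory light chain Myl9 -0.28 in NPC and 8.97 in MEF, 609-fold lower, and Tpm2 473-fold lower. Skeletal actin, Acta1, was at least 319-fold lower, and the crosslinker Actn1 119-fold lower. Cardiac actin, Actc1, was the exception, 0.47 in NPC and -2.12 in MEF and 6.05-fold higher. Components of the general cytoskeleton were closer: non-muscle myosin Myh9 was lower by 4.31-fold, its relative Myh10 differed by -0.67 on the log2 scale, Tpm3 by -0.78, and Tagln2 by 0.15. For Tpm1, the probe used (the brightest on average) gave -0.49, but another of its 5 probes gave -4.48, so its side of 4-fold depends on the probe.

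The CArG box, the element that serum response factor (Srf) binds, lies in promoters of many contractile genes, so the promoter sequences of these genes were read beside their values. Promoters here are the 300 bases from 250 before to 50 after each RefSeq start (GRCm38.p6), searched on both strands. The table held promoters of 27 of the 30 contractile genes; 7 of the 27 had a CArG box, in 8 of 31 promoters (25.8%), against 1.42% of the 15729 promoters of genes counted. Of the 7 genes, 5 were lower in NPC (Acta1, Cnn2, Fhl2, Myl9 and Vcl), 1 was higher (Actc1) and 1, Srf itself, differed by -1.14. Of the 20 genes without a match, 12 were lower. A match is a description of letters and not a bound site, and Acta2 and Cnn1 had no match in this window. The stretches below are shown because they place the same element in genes on opposite sides; they run 5′ to 3′ on the gene's strand, end before the start, and have the CArG box in capitals.
Myl9: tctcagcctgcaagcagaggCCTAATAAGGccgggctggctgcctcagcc
Acta1: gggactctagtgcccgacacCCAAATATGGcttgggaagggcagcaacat
Cnn2: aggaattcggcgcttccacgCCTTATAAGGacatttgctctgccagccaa
Fhl2: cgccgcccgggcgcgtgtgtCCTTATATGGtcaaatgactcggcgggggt
Actc1: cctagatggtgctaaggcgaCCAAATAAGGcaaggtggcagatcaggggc
The Myl9 box begins 161 bases before the start (chr2:156775283-156775332, plus strand), that of Acta1 73 bases before (chr8:123894819-123894868, minus strand) and that of Cnn2 56 bases before (chr10:79988524-79988573, plus strand). The Fhl2 box lies 31 bases before 1 of its starts (chr1:43163963-43164012, minus strand) and the Actc1 box 47 bases before (chr2:114052893-114052942, minus strand). Beside these, Cnn2 measured 1.72 in NPC and 6.71 in MEF (31.7-fold lower), Fhl2 -0.43 in NPC and 5.63 in MEF (66.7-fold lower) and Vcl, the adhesion protein vinculin, 1.53 in NPC and 4.07 in MEF (5.79-fold lower).

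YAP and TAZ act with TEAD factors, and several of the best known target genes were lower in NPC. Of 14 genes on the list 8 were lower and 0 higher, with a median of -2.21. Ccn2 (Ctgf) gave -1.61 in NPC and 7.53 in MEF, 564-fold lower, Ccn1 (Cyr61) 1.04 in NPC and 5.9 in MEF, 29.2-fold lower, Ankrd1 at least 146-fold lower and Axl 88.1-fold lower. Yap1 itself measured 5.02 in NPC and 5.11 in MEF, Wwtr1 (Taz) 1.16 in NPC and 1.77 in MEF and Tead2 5.59 in NPC and 5.05 in MEF. Among the other TEAD factors Tead1 was 4.23-fold lower, although 1 of its 3 probes gave -0.59, Tead3 was 5.86-fold lower (-2.68 in NPC and -0.13 in MEF), and Tead4 differed by -0.69. The core TEAD motif GGAATG was present on either strand in promoters of 10 of the 11 genes held, of which 6 were lower. By promoters, 12 of the 15 of the list (80%) held it, against 12.9% of those of all genes counted. 3 stretches from genes lower in NPC are given with the motif, or its reverse complement CATTCC, in capitals.
Ccn1: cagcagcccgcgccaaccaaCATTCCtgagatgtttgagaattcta
Amotl2: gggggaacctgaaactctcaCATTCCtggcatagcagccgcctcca
Ankrd1: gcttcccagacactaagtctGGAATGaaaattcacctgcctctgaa
These are chr3:145650063-145650108 on the minus strand, chr9:102717719-102717764 on the plus strand and chr19:36119942-36119987 on the minus strand. Amotl2, a junction protein that restrains YAP, was 23.7-fold lower.

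TGF-beta ligands and response genes were lower and their receptors and Smads mostly level. The list had 15 of 23 members lower, 0 higher and a median of -3.31. The ligands Tgfb1, Tgfb2 and Tgfb3 were at least 75.6-fold, 9.93-fold and 90.3-fold lower, and the activin subunits Inhba and Inhbb at least 926-fold and 18.6-fold lower. The response gene Tgfbi was 54.4-fold lower, and the feedback inhibitor Smad7 at least 148-fold lower at -5.1 in NPC and 3.03 in MEF. Receptors Tgfbr1 (0.16) and Tgfbr2 (-0.98) and the transducers Smad2 (1.04), Smad3 (-0.85) and Smad4 (-0.29) differed by about 2-fold or less.

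In the BMP branch, 4 of 20 counted members were lower and 1 higher, against 10.3% and 8.07% of all genes. Bmp4 was at least 467-fold lower (-4.96 in NPC and 4.69 in MEF) and Bmp7 234-fold higher (3.98 in NPC and -3.89 in MEF). The secreted antagonist Grem1 was 198-fold lower, while Nog (noggin) gave 0.14 in NPC and 1.08 in MEF. The response gene Id1 was 14.4-fold lower, and Id2 (-0.46) and Id3 (-1.17) differed less. Receptors Bmpr1a (1.22) and Bmpr2 (-0.6) were close.

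Notch pathway members were higher in 5 of 17 and lower in 1. The ligand Dll1 was at least 18.9-fold higher and the fringe enzymes Lfng and Mfng, which tune ligand choice, 18.2-fold and 11.1-fold higher. The receptors Notch1 (-1.27), Notch2 (0.14) and Notch3 (1.2) and the nuclear effector Rbpj (-0.01) were within 4-fold, and the ligand Jag1 gave 1.49 in NPC and 3.34 in MEF. The target Heyl, typical of mural and mesenchymal cells, was at least 38.1-fold lower, opposite to Hes5.

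Wnt genes lay on both sides, 6 higher and 11 lower of 37. The ligands Wnt7a and Wnt7b, made by forebrain progenitors, were 25.7-fold and at least 8.21-fold higher, and the receptors Fzd9 (3.38 in NPC and -1.9 in MEF) and Fzd10 (2.45 in NPC and -6.37 in MEF) 38.7-fold and at least 94.5-fold higher. Wnt9a was 35.4-fold lower, the receptors Fzd2 and Fzd7 7.76-fold and 6.06-fold lower, and the secreted modulators Dkk2, Dkk3 and Sfrp1 at least 32.99-fold, 33.05-fold and 11.9-fold lower. The co-receptors Lrp5 (-0.78) and Lrp6 (-1.0) were close. Ccnd1, cyclin D1, was 10.9-fold higher at 7.73 in NPC and 4.29 in MEF, Lef1 9.14-fold lower and the target Axin2 well above background in NPC alone, at -2.57.

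Of 13 counted Hedgehog components 2 were higher (against 8.07% of all genes) and 0 lower, and 5 lay within 2-fold. Dhh was at least 96.8-fold higher (2.48 in NPC and -6.41 in MEF), the co-receptor Cdon 4.07-fold higher, and Shh was dim on both arrays. Smo gave 5.06 in NPC and 4.82 in MEF, Ptch1 0.23 in NPC and -1.33 in MEF and Gli3 1.81 in NPC and 3.2 in MEF, while Gli1, the usual target, was not well above background in NPC.

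Growth factors were lower in 16 of 33 counted members and higher in 3. The fibroblast factors Igf2 (-4.69 in NPC and 2.55 in MEF), Fgf7 (-4.58 in NPC and 2.44 in MEF) and Nrg1 (-2.33 in NPC and 3.69 in MEF) were at least 106-fold, at least 98.5-fold and 64.6-fold lower, and Pdgfa, Pdgfc and Vegfa 7.76-fold, 5.81-fold and 4.82-fold lower. Those higher in NPC were Fgf1 (3.51 in NPC and -3.79 in MEF, 158-fold), Angpt2 (4.04 in NPC and -0.83 in MEF, 29.3-fold) and the Kit ligand Kitl (14.4-fold). Binding proteins split too, with Igfbp3 19.3-fold higher and Igfbp6 and Igfbp5 382-fold and 26.9-fold lower.

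Among receptor tyrosine kinases, 4 of 23 were higher and 3 lower, the latter close to the 10.3% of all genes. Pdgfrb, the receptor of fibroblasts and mural cells, was at least 654-fold lower (-6.43 in NPC and 5.17 in MEF), the collagen receptor Ddr2 367-fold lower and Flt1 at least 211-fold lower. Erbb4 (at least 25.1-fold), Kit (at least 22.7-fold), Alk (17.5-fold) and the BDNF receptor Ntrk2 (8.14-fold) were higher. Receptors for the factors that commonly sustain progenitors in culture were level: Egfr gave 4.29 in NPC and 4.09 in MEF, Fgfr1 5.14 in NPC and 5.92 in MEF and Igf1r 3.39 in NPC and 3.41 in MEF.

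Guidance molecules were spread on both sides. Of 38 semaphorin, netrin and slit genes 6 were higher and 9 lower. Slit2 and Slit3, repellents that bind Robo receptors, were 50.8-fold and at least 199-fold lower and Sema3f 40.6-fold lower, while Sema5b was at least 72.2-fold higher, Ntn1 15.6-fold and the plexin Plxnb3 22.7-fold. Of 19 Eph and ephrin genes 8 were lower and 2 higher, with Epha3 46.1-fold lower and Ephb1 at least 35.4-fold higher.

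Cadherins differed by member. Of 29 counted, 11 were higher and 4 lower. Mesenchymal Cdh11 gave -4.81 in NPC and 3.11 in MEF, at least 157-fold lower, and Cdh3 was at least 123-fold lower. Cdh4 (R-cadherin) gave 4.7 in NPC and -2.37 in MEF, 135-fold higher, Cdh22 3.48 in NPC and -4.02 in MEF, 180.3-fold higher, and Cdh20 32.3-fold higher. The planar polarity genes Celsr1 and Celsr2 were at least 29.03-fold and 11.8-fold higher. Cdh1 and Cdh5, of epithelium and endothelium, were dim on both arrays.

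**Figure D3:**
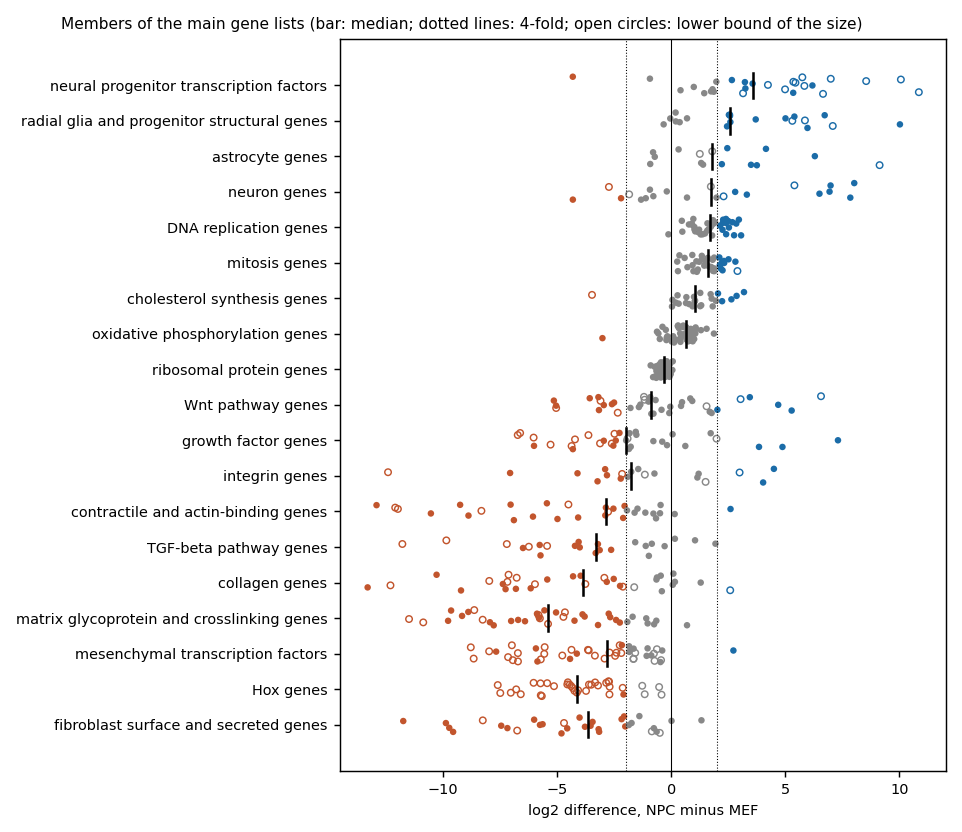
Log2 difference, NPC minus MEF, of every counted member of the main gene lists (1 point per gene; blue higher, orange lower, grey less than 4-fold apart; open circles are bounds where 1 array was not well above background; black bars are list medians). Ribosomal protein genes cluster near 0, DNA replication and mitosis genes lie close together to the right of 0, and matrix, contractile and Hox genes reach far to the left.

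Mesenchymal transcription factors lay on the side opposite to the neural ones. Of 44 counted, 28 were lower in NPC and 1 higher, with a median of -2.81, and 29 of the 44 were not well above background in NPC, so most folds are bounds. Those 29 could not be called higher. Runx1 (4.6 in MEF) was at least 441-fold lower, Tbx3 at least 404-fold, Snai1 at least 252-fold, Snai2 204-fold, Twist1 at least 52.6-fold, Twist2 at least 127-fold and the limb factor Pitx1 at least 105-fold. Prrx1, a marker of limb and craniofacial mesenchyme, was 4.48-fold lower and still well above background in NPC, 1.34 in NPC and 3.5 in MEF. Zeb1, known for mesenchymal transition and also expressed in neural progenitors, was 6.60-fold higher at 5.43 in NPC and 2.71 in MEF, and Zeb2 gave 1.72 in NPC and 2.12 in MEF.

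Hox genes, which record position along the trunk and limb, lay on the fibroblast side. Of the 35 that were counted, 31 were at least 4-fold lower in NPC. All 35 were well above background on the MEF array, and 34 were not in NPC. Those 34 were counted through the MEF array alone and could not be called higher, so the 0 called higher is largely set by the filter. Only Hoxa9 was well above background on both arrays, with -3.09 in NPC and -0.97 in MEF and 4.33-fold lower. Bounds were at least 194-fold for Hoxa7, at least 179.9-fold for Hoxc9, at least 131-fold for Hoxc6 and at least 111-fold for Hoxb9, and Hoxd4 was at least 21.8-fold lower, so that each of the Hoxa, Hoxb, Hoxc and Hoxd clusters was represented. Posterior genes were included, with Hoxa11 at least 20.8-fold and Hoxc10 at least 19.97-fold lower, while Hoxb1, Hoxb13, Hoxd1 and Hoxd12 were dim on both arrays. Otx2, of the anterior brain where Hox genes are normally silent, was high in the same NPC sample.

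Surface and secreted proteins of fibroblasts were lower in 23 of 32 members and higher in 0. The calcium-binding proteins S100a6 and S100a4 were 3428-fold and 939-fold lower, annexins Anxa1 and Anxa2 848-fold and 16.2-fold lower, and Thy1, a surface marker of fibroblasts and of mature neurons, 754-fold lower (-1.38 in NPC and 8.18 in MEF). Fap and Ly6a (Sca-1) were 175-fold and at least 108-fold lower. Lgals1 was bright on both arrays, 7.8 in NPC and 9.2 in MEF. Proteases and inhibitors were lower in 17 of 32 and higher in 4: Serpinf1 (PEDF) 2821-fold, Mmp11 358-fold, Mmp14 60.7-fold and Timp1 66.2-fold lower, against Mmp15 at least 158-fold, Timp4 at least 30.7-fold, Serpine2 11.4-fold and Plat 5.99-fold higher.

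Immune signalling genes lay mostly on the fibroblast side. Chemokines and cytokines were lower in 15 of 24 counted members: Cxcl12 at least 1163-fold, Ccl7 at least 298-fold, Cxcl1 at least 52.99-fold, Il6 at least 24.5-fold and Csf1 16.5-fold. Of the 24, 13 were not well above background in NPC and could not be called higher. Over the 10 that were well above background on both arrays the median was -2.09. Cxcr4, the receptor of Cxcl12, was at least 5.33-fold higher in NPC and Il18 5.91-fold higher. Interferon response genes were lower in 14 of 30 and higher in 1, with Ifi27 89.3-fold, Ifitm3 46.6-fold and Isg15 13.3-fold lower and Gbp3 16.8-fold higher. The interferon-response element GAAANNGAAA was found in promoters of 14 of the 25 interferon genes held, 7 of them lower, and 6 of the 11 genes without it were lower too. By promoters, 45.2% of those of the list held it and 2.92% of those of all genes counted. The Isg15 and Ifit3 stretches are given because each gene was lower in NPC (13.3-fold and at least 5.88-fold), with 1 match to the element, or its reverse complement, in capitals. The Isg15 stretch holds other, overlapping matches that are not marked.
Isg15: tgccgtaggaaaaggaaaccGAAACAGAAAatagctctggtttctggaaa
Ifit3: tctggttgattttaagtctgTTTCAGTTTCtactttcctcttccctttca
They lie at chr4:156200855-156200904 on the minus strand and chr19:34583387-34583436 on the plus strand (GRCm38.p6). MHC class I presentation genes were lower in 3 of 16, with B2m at 3.9 in NPC and 5.08 in MEF and H2-K1 at 3.34 in NPC and 4.12 in MEF.

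Genes of the dividing cell had higher signal in NPC. DNA replication genes were higher in 14 of 38 members and lower in 0, and 37 of 38 lay above 0, with a median of 1.7; all were well above background on both arrays. Pcna, the polymerase clamp, gave 6.46 in NPC and 3.93 in MEF, 5.76-fold higher, the origin-licensing factor Cdc6 7.79-fold and Uhrf1 5.27-fold. The helicase subunits Mcm2 to Mcm7 were each higher by less than 4-fold, from 0.91 (Mcm7) to 1.83 (Mcm5). Mitosis genes were higher in 10 of 35 and lower in 0, with all 35 above 0 and a median of 1.6: Ccnb1 gave 5.37 in NPC and 2.56 in MEF, Cdk1 3.72 in NPC and 1.51 in MEF, and Top2a 3.69 in NPC and 1.38 in MEF, each at least 4-fold higher, and Mki67, the proliferation marker, 6.35 in NPC and 4.46 in MEF, a difference of 1.88. Inhibitors and p53 targets were lower in 6 of 25 (against 10.3% of all genes) and higher in 2, about the 8.07% of all genes. Gadd45b was 46.8-fold, Cdkn2b 16.7-fold and Cdkn1c 9.80-fold lower, Rbl1 8.25-fold and Cdkn2c 4.59-fold higher, and Cdkn1a (-0.54) and Trp53 (-0.46) were close.

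Metabolic lists had medians nearer to 0. Cholesterol synthesis genes were higher in 5 of 25 and lower in 1, and 24 of 25 lay above 0 with a median of 1.04: Dhcr7 was 9.10-fold, Idi1 7.27-fold and Hmgcs1 4.68-fold higher. Oxidative phosphorylation genes had 39 of 48 members above 0 and a median of 0.66, with 0 called higher; the muscle isoform Cox6a2 was 8.09-fold lower. Glycolysis genes had a median of -0.99 and 3 of 23 lower, close to the 10.3% of all genes, among them the lactate exporter Slc16a3 (Mct4), 0.82 in NPC and 5.89 in MEF and 33.6-fold lower. Ldhb was 4.41-fold higher and Ldha gave -0.31. In hypoxia response genes 4 of 15 were lower, including Ndrg1 12.3-fold and Bnip3 7.32-fold.

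Single enzymes differed more than their pathway as a whole. In serine and one-carbon metabolism 3 of 19 were higher and 3 lower, yet Gldc, the glycine decarboxylase of radial glia and astrocytes, gave 3.33 in NPC and -3.16 in MEF, 90.4-fold higher, and Cbs, cystathionine beta-synthase, 4.56 in NPC and -1.91 in MEF, 88.2-fold higher. The serine synthesis enzymes Phgdh (-0.1) and Psat1 (0.18) were level.

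Chromatin genes differed little as a group, 4 of 31 higher (against 8.07% of all genes) and 0 lower with a median of 0.59. Ezh2, the H3K27 methyltransferase of dividing cells, gave 3.71 in NPC and 1.26 in MEF, 5.46-fold higher, Dnmt3a 5.88-fold, Tet1 7.77-fold and Hdac9 9.88-fold higher, and the related methyltransferase Ezh1 -1.71. Of the BAF complex subunits 1 of 23 was higher, Dpf3 (at least 12.2-fold), and 1 lower, Smarcd2 (4.94-fold), and the neuronal subunit Actl6b was dim on both. RNA-binding proteins were higher in 5 of 24 and lower in 3: Qk, which regulates glial mRNAs, gave 5.74 in NPC and 1.13 in MEF, 24.5-fold higher, Lin28b at least 21.4-fold and Elavl2 at least 17.2-fold higher, and Mbnl3 at least 22.1-fold and Rbfox1 at least 65.9-fold lower.

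Imprinted genes, expressed from 1 parental copy and active in embryonic growth, lay far apart in both directions: 8 of 20 were lower and 4 higher. Meg3, a long non-coding RNA of the Dlk1 locus, gave -3.22 in NPC and 7.63 in MEF, 1845-fold lower, its neighbours Dlk1 and Mirg 133-fold and at least 391-fold lower, and H19, the neighbour of Igf2, -0.01 in NPC and 8.36 in MEF, 330.2-fold lower. Nnat (neuronatin) was 44.9-fold higher, Peg10 21.8-fold and Mest 5.80-fold higher. Of other long non-coding RNAs, Sox2ot, which overlaps Sox2, was at least 11.98-fold higher, Mir22hg 89.6-fold lower, and Malat1 (-0.08) and Gas5 (0.03) were level.

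Pluripotency genes gave no common direction, 2 of 13 higher and 1 lower, near the 8.07% and 10.3% of all genes. Pou5f1, Zfp42, Dppa2, Dppa4, Prdm14 and Fgf4 were dim on both arrays. Esrrb, an orphan nuclear receptor of embryonic stem cells, gave 3.64 in NPC and -2.96 in MEF, 96.6-fold higher, and Mycn at least 14.2-fold higher, while Klf2 was 10.4-fold lower and Klf4 gave 1.34 in NPC and 3.05 in MEF. Nanog, with -0.51 in NPC and 0.21 in MEF, differed by -0.72.

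Genes meant to be constant were close. All 45 counted ribosomal protein genes lay within 2-fold, with a median of -0.34, and of 18 housekeeping genes 1, the transferrin receptor Tfrc (6.71-fold), was called higher and 0 lower. Actb gave 9.33 in NPC and 9.74 in MEF and Hprt 4.64 in NPC and 4.3 in MEF.

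Markers of other cell types were read as a check of the labels. Of 18 macrophage and microglia markers 13 were well above background in MEF and 6 in NPC, and the brightest signals were 5.96 in MEF and 3.86 in NPC. Ptprc, Lyz2, Mrc1 and Spi1 were dim on both arrays. Of the 14 counted, 3 were lower in NPC, against 10.3% of all genes. Another limit is that 8 of the 14 were dim in NPC and could not be called higher. Trem2 was at least 11.9-fold lower, in the same direction as the chemokine and interferon lists. Of 14 endothelial markers 5 were detected in NPC and 8 in MEF; Cdh5, Tek, Tie1, Esam, Sox17 and Sox18 were dim on both, Pecam1 gave -2.03 in NPC and -1.68 in MEF, and 2 were higher in NPC, Plvap (3.38 in NPC and -2.39 in MEF, 54.8-fold, the other of its 2 probes 1.6) and Emcn (4.40-fold). Epithelial Epcam and Cdh1 and muscle Myod1 and Myog were dim on both arrays, whereas Krt18 and Krt19 were 36.2-fold and at least 25.8-fold lower in NPC and the troponin Tnnt2 at least 44.2-fold lower. Of 9 pericyte markers 4 were lower (against 10.3% of all genes), Pdgfrb among them. However, 5 of the 9 were dim in NPC and could not be called higher. Over the 4 that were well above background on both arrays the median was -0.002. Xist, the RNA of the inactive X, and the Y-linked Eif2s3y were both well above background on both arrays, Xist at 1.47 in NPC and 0.55 in MEF and Eif2s3y at 1.81 in NPC and 1.25 in MEF. The part of such cells in any result was not tested.

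**Figure D4:**
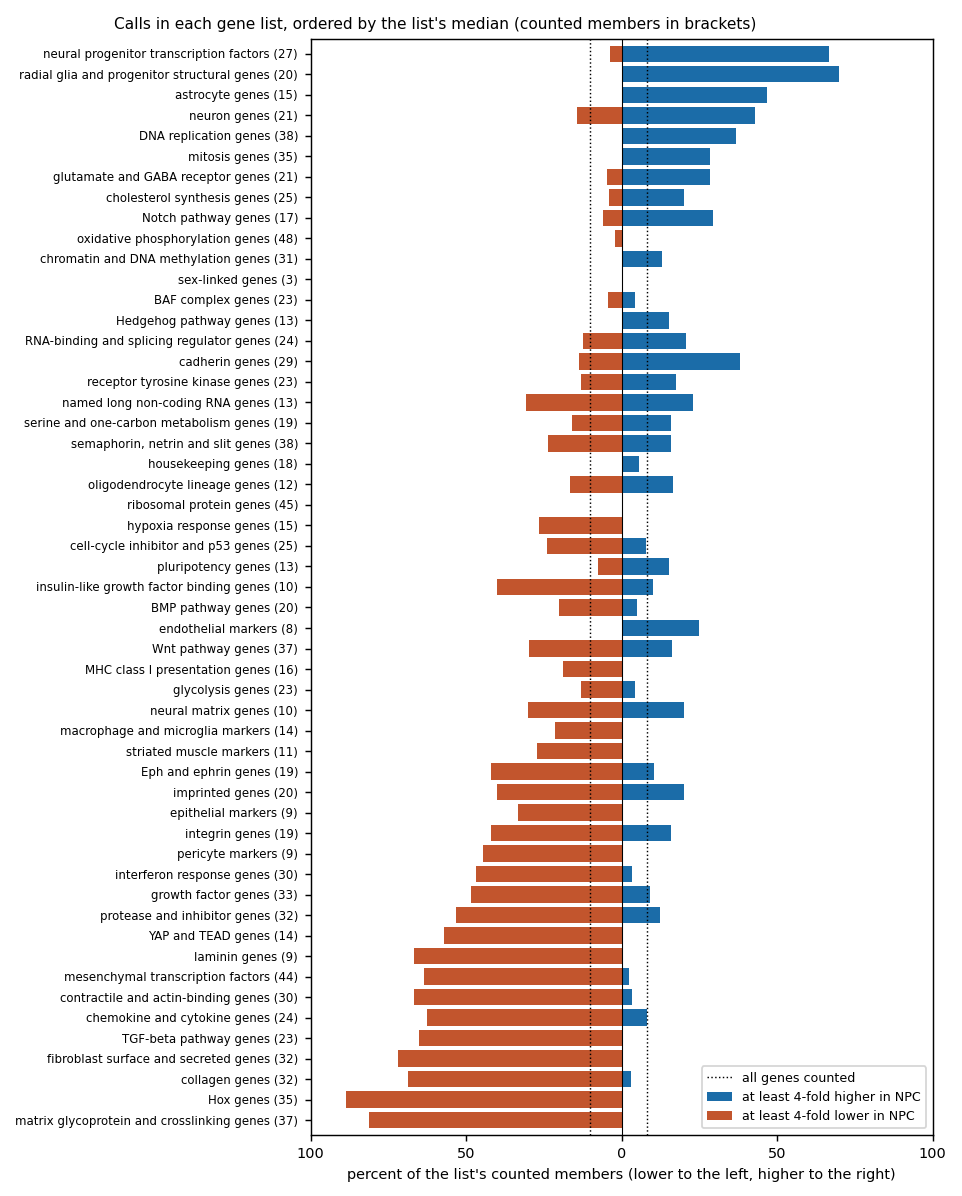
Share of each of 53 gene lists' counted members (number in brackets) called at least 4-fold higher in NPC (blue, to the right) or lower (orange, to the left), ordered by the list's median difference. The dotted lines give the same shares over all genes counted, 8.07% and 10.3%; neural progenitor factors and radial glia genes stand at the top, matrix and Hox genes at the bottom.

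Outside the lists, the rule for the largest differences named 10 more genes. Bex2 gave 6.94 in NPC and -5.28 in MEF, Rtn1, a reticulon of neurons and neuroendocrine cells, 7.15 in NPC and -2.65 in MEF (889.8-fold higher), and Fam181b 6.27 in NPC and -3.42 in MEF (824-fold higher). Prr18 was at least 591-fold higher, protein kinase C beta, Prkcb, at least 524-fold, the potassium channel Kcnd3 492-fold, the synaptic adhesion protein Lrrc4b 423-fold and carbonic anhydrase Car3 370.2-fold. On the other side Mgp, an inhibitor of calcification, was at least 2319.7-fold lower (-5.32 in NPC and 7.0 in MEF) and Ccn4 (Wisp1) at least 2166-fold lower (-5.38 in NPC and 6.9 in MEF). Of the 1289 genes higher in NPC 169 were members of a list, and of the 1644 lower 355 were.

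Genes with more than 1 probe allowed a check within the arrays. Of 375 genes called higher that had 2 or more counted probes, 345 (92%) had all of them on the same side of 0, and of 390 called lower 376 (96.4%) did. Genes whose probes were at least 4-fold apart in opposite directions numbered 3 among 4415 with 2 or more probes. For Rab3d, a vesicle protein, the probe at chr9:21719348-21719407 (mm9, minus strand) gave 2.34, and that at chr9:21713734-21713793 gave -3.19. Asph, an aspartyl hydroxylase gene with several products, ranged from 2.25 at chr4:9548068-9548127 to -2.58 at chr4:9379226-9379285. Lhfpl4 gave 2.05 and -2.04 at probes chr6:113118146-113118205 and chr6:113120437-113120496. Of 77 genes named above that were called and had 2 or more counted probes, 24 had a probe that did not reach 4-fold, so their call rests on the probe used. For those called higher the least log2 difference of a probe was that of Ccnb1 (1.5), Cdk1 (1.33), Cdon (0.8), Celsr2 (-0.01), Elavl2 (1.61), Fgfr3 (0.92), Gria2 (0.8), Mest (1.87), Msi2 (1.25), Ntrk2 (1.5), Plvap (1.6), Prom1 (1.31), Qk (0.27), Rbl1 (0.27), Sox1 (-0.75), Tet1 (1.39) and Tfrc (0.76). For those called lower it was that of Bnip3 (-1.7), Fzd2 (-1.51), Isg15 (-1.88), Mbnl3 (-1.78), Mbp (-0.32), Prrx1 (-1.47) and Tead1 (-0.59). The least probe still reached 4-fold but lay at least 4 log2 units under the one used for Cdh4 (3.02), Fbln5 (-3.23), Fgf1 (2.83), Itgb3 (-2.02), Kcnd3 (3.12) and Meg3 (-6.57). Some named genes that were not called had another probe past 4-fold, among them Axin2 (2.12), Nr2f1 (3.23), Ptch1 (2.57), Sparc (-2.3) and Tpm1 (-4.48). The mm9 coordinates are the probe positions given in the array files; exon and UTR annotation of that build was not used here.

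Promoters of the genes that were called differed in CpG content. Of the 1644 genes lower in NPC 1206 had a promoter in the table (1615 promoters), and 42.97% of these had a CpG observed-to-expected ratio of at least 0.6, against 60.5% of the 1319 promoters of 1017 genes higher in NPC and 60.95% of all. For genes at least 32-fold lower the share was 35.9%, and for those at least 32-fold higher 50.6%. Median GC content was similar, 59.00% and 60.3%. The AP-1 motif TGANTCA was in 8.67% of promoters of genes lower, 5.16% of genes higher and 5.65% of all. GGAATG was in 16.8%, 12.4% and 12.9%, and the CArG box in 2.48%, 1.36% and 1.42%. The Sox motif AACAATG was in 2.96% of promoters of genes higher and 2.35% of genes lower, and the E2F motif TTTGGCG in 2.88% and 1.42%. TATAAA between 40 and 20 bases before the start was in 2.85%, 1.97% and 1.78%. For genes at least 32-fold lower and higher, AP-1 was in 6.71% and 6.32% of promoters and E2F in 2.01% and 2.30%, so these gaps were small there. GGAATG was in 19.5% and 12.6%, the CArG box in 4.36% and 1.15%, the Sox motif in 1.01% and 4.02%, and TATAAA in 4.36% and 0.57%. The lower and higher sets at 32-fold hold only 298 and 174 promoters, so several of these shares rest on few matches. The CArG box was in 13 and 2 promoters, the Sox motif in 3 and 7, and TATAAA in 13 and 1. Motifs were searched on both strands except TATAAA, and matches of different motifs may overlap. Some genes have several promoters, which share neighbouring sequence.

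**Figure D5:**
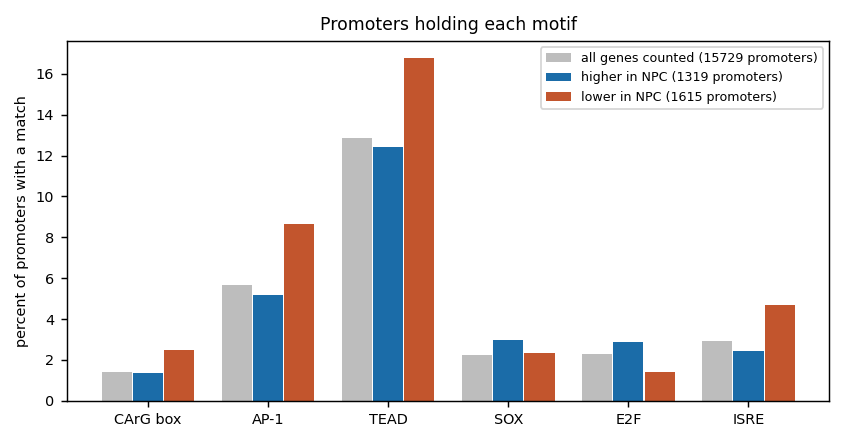
Percent of promoters (250 bases before to 50 after the start) with at least 1 match to each motif, for all genes counted, genes higher in NPC and genes lower in NPC. AP-1, TEAD, CArG and ISRE matches are more frequent among genes lower in NPC, and E2F matches among genes higher.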

How the data were processed

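Total RNA of each sample was labelled with Cy3 and hybridised to Agilent whole mouse genome 60-base arrays with 1 colour. Per the file headers, the authors scanned the arrays and extracted spot intensity with Feature Extraction 10.7.1.1, and the processed intensity deposited is background-subtracted. The deposited value table, used as an alternative, holds log2 values, and their normalization is not given in the sources used here. Control spots and outlier-flagged spots were removed, repeated spots of a probe were averaged, and log2 signal was set relative to the array's 75th percentile. Of several probes of a gene, the one brightest on average across all 5 arrays was used; probes were named through their accession, or otherwise their symbol, in the RefSeq gene table, and no pseudocount was added. With 1 array per cell type no test was run, and the number of arrays limits the precision. Members and gene lists were chosen with earlier results of these data known. Named genes are list members, described by role and by the largest differences in each direction, the 15 largest differences each way, and genes with opposed probes. Some list members are counted but not reported by name here. Promoters came from RefSeq (GRCm38.p6). Software was R 4.3.3, limma 3.58.1 (normexp), Python 3.11.15, pandas 2.3.3, numpy 2.4.6 and matplotlib 3.10.9.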

Additional observations from a re-analysis of the deposited data

How the results depend on the processing

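Background, scaling, probe choice, floor, dim-gene filter and fold were changed 1 at a time. Genes higher in NPC numbered 842 with normexp, 3333 at 2-fold and 565 at 8-fold. Genes lower in NPC numbered 1035 when only genes well above background on both arrays were counted, 3486 at 2-fold and 948 at 8-fold. The other alternatives kept both counts within 1.5 times of 1289 and 1644. Genes apart between the passage 13 arrays numbered 24 with normexp, 165 in the deposited value table, 17 for genes above background on both arrays, 996 with no floor, 64 with a floor at the 5th percentile, 859 at 2-fold and 20 at 8-fold, against 103. The median of neural matrix genes was 0.13 with the mean over all probes in place of -1.10, and that of neuron genes -0.034 with no filter on dim genes in place of 1.73; the cause was not tested. These were the only reversals among the 29 lists with a median of at least 1 in size, and every called gene named here kept its direction under the alternatives run. Sizes were less stable. With normexp, 190 of 343 named genes and 22 of 53 list medians moved by more than the passage 13 SD of 0.307. The deposited value table moved 92 named genes and the mean over all probes 83. With only genes well above background on both arrays, 250 of the 343 could be read. Medians nearer 0 changed sign under at least 1 alternative for Hedgehog, cadherin, housekeeping, long non-coding RNA, receptor tyrosine kinase, semaphorin, serine and sex-linked genes. So did 13 named genes that were not called, among them Gfap (-0.06), Notch1 (0.12), Vcan (0.32) and Zeb2 (0.57) with the mean over all probes, dim ones included. No scaling alternative moved the median of all genes by more than 0.086. Leaving out a replicate was not possible, as each cell type has 1 array. No paired analysis was possible because each cell type has 1 array. Signal near background limits the folds written as bounds.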

Other observations

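Probes that could not be tied to a gene name were counted separately: 13435 were well above background on at least 1 of the 2 arrays. Of these 680 were at least 4-fold higher in NPC and 606 at least 4-fold lower, together 9.57% of the probes. The 18.4% of the genes counted rests on the brightest probe of each gene, so these shares are unlike measures. The genes were also split into 3 equal groups by brightness. Between NPC and MEF, 738 genes of the dimmest group, 1224 of the middle group and 971 of the brightest group were at least 4-fold apart. Between the 2 passage 13 arrays, none of the 4943 genes of the brightest group was.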
